A study of Mus musculus with 10 samples.

Results

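Genes of the Krüppel-like factor (KLF) and specificity protein (SP) family outside the SIN3-binding group to which KLF13 belongs were followed in activated T cells with and without KLF13. The list held 9 genes, Klf3, Klf4, Klf6, Klf7, Klf12, Sp1, Sp2, Sp3 and Sp4, and a gene was measured where probe sets annotated to that gene alone stood in both deposited tables. This gave values for 8 of the 9 genes, out of 19048 genes in both tables. Sp2 had no such probe set and was not analysed here.

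The cells were CD3+ spleen T cells of Balb/c mice, all male and 12 weeks old, either wild type (WT1 to WT5) or KLF13 KO (KO1 to KO5), and the labels give each sample its own mouse. All cultures, of both genotypes, had been activated for 4 days with antibody to CD3 bound to the plate and antibody to CD28 in solution before total RNA was put on Affymetrix arrays. The labels name the knockout mice only as KLF13 KO and do not say how the gene was disrupted. They state that the RNA was primed from the 3′ end with oligo(dT) and labelled with a 3′ IVT kit, whereas exon-level probe sets lie along the whole transcript. The values are log2 RMA signals, in which 1 unit is a doubling, and they come as an exon-level table (replicates 1 to 3) and a gene-level table (replicates 4 and 5). Because replicate 1 lay on another scale than replicates 2 and 3, knockout arrays were compared with wild-type arrays within replicate 1, within replicates 2 and 3, and within replicates 4 and 5.

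KLF and SP proteins share 3 zinc fingers at the carboxyl end, which contact GC-rich DNA, mostly GC boxes and CACCC boxes, so that many members can bind the same promoters. What a member does once bound depends on the rest of the protein. KLF3 and KLF12 recruit the corepressor CtBP and act mainly as repressors, KLF6 and KLF7 are activators of one subgroup, KLF4 can do either and is known for holding cells out of the cycle, and SP1, SP3 and SP4 are activators in most settings, with SP3 also able to repress. In T cells several KLF genes, Klf2 and Klf4 among them, are high at rest and fall after stimulation of the antigen receptor.

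Promoters of 3 members are shown, because the values of these genes ran in different ways: Klf3 changed sign between replicate sets, the knockout values of Klf7 were the lower ones in each set, and those of Klf12 were the higher ones. Sequences are from RefSeq (GRCm38.p6), from 250 bases before to 50 after the listed start, 5′ to 3′ on the gene's strand. For Klf7 and Klf12 the listed start lies inside the annotated span of the gene. Capitals mark the GC box GGGCGG and the CACCC box CACCC on either strand (CCGCCC and GGGTG), with overlaps allowed.
Klf3, chr5:64803271-64803570, plus strand: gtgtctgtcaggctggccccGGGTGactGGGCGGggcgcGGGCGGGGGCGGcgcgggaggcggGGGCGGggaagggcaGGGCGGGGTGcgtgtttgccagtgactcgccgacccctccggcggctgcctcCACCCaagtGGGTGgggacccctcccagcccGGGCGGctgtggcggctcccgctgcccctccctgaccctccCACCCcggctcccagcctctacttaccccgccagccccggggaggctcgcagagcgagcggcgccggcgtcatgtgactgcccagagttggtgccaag
Klf7, chr1:64121340-64121639, minus strand: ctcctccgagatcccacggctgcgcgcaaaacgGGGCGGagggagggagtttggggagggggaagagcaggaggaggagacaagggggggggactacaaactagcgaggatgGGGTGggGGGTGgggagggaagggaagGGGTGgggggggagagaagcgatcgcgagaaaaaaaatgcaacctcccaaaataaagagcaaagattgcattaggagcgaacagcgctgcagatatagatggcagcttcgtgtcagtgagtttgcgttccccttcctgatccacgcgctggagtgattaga
Klf12, chr14:100149747-100150046, minus strand: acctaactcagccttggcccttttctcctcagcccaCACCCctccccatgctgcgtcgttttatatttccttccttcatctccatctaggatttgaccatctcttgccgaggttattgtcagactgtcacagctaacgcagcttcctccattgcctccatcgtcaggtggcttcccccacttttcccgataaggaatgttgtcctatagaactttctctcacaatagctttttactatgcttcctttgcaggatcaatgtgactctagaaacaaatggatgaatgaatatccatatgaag
The Klf3 window held 6 GC boxes and 5 CACCC boxes, the Klf7 window 1 and 3, and the Klf12 window 0 and 1. Klf4 had 4 GC boxes, Klf6 had 1, Sp1 had 4, Sp4 had 5, and the windows of Sp3 at its 2 listed starts had 2 and 5. Of 32851 windows of this length in the table, 35.7% held at least 1 GC box, 10.7% held 3 or more, and 57.5% held a CACCC box. A match is a run of letters and no measured binding. In the same build Klf3 spans chr5:64803521-64832901, Klf7 chr1:64029448-64122345 and Klf12 chr14:99866181-100285891. Klf4 spans chr4:55527137-55532475 and Klf6 chr13:5861489-5870393. Of the SP genes, Sp1 spans chr15:102406316-102436404, Sp3 chr2:72936430-72980446 and Sp4 chr12:118231686-118301440.

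The arrays were checked first. Klf13 itself, the targeted gene, was at 0.549 of wild type (limma with replicate sets as block, log2 difference -0.86 ± 0.12, SE, 5 arrays against 5, adjusted p = 0.0126), and each knockout array read below the wild-type arrays of its set; whether its probe sets lie in the disrupted part is not known. T cell markers were bright, with a mean over 6 genes of 9.94 to 10.1 in the wild-type arrays of the gene-level table and of 10.0 to 10.1 in the knockout arrays. The genotypes were not alike in these markers in every set. Their median difference, knockout minus wild type, was -0.26 in replicate 1, -0.72 in replicates 2 and 3 and 0.0038 in replicates 4 and 5. Of the listed markers of other cells, 5 of 6 for B cells, 6 of 6 for myeloid cells and 3 of 3 for NK cells were measured. For erythroid cells only 2 of 6 were. Bright enough to be tested were 2 of the 5 for B cells, 2 of the 6 for myeloid cells and 0 of the 3 for NK cells. Both measured erythroid markers were bright enough. KO3 stood apart from KO2, with a median absolute gap of 0.50 log2 over the tested genes, against 0.11 between WT2 and WT3, 0.15 between WT4 and WT5 and 0.13 between KO4 and KO5. In replicates 2 and 3 the median difference of all 12485 tested genes was -0.22, against -0.02 in replicate 1 and -0.01 in replicates 4 and 5, so values in that set are read against -0.22. These are bulk samples, in which fewer cells of a type and less RNA per cell cannot be told apart.

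Of the 7 members bright enough to be tested 0 passed limma's adjusted p of 0.05 and 0 had an unadjusted p under 0.05, beside 0.585% of all tested genes called (0.0961% higher and 0.489% lower) and 14.9% at an unadjusted p under 0.05. Their fitted log2 differences, knockout minus wild type, ran from -0.30 for Klf7 to 0.08 for Klf4, with 5 of 7 below 0, against 63.5% of all tested genes. The median was -0.14 for the 7 members and -0.10 for all tested genes. In the exon-level table alone 0 members passed (limma, 0% of all genes called) and 0 had an unadjusted p under 0.05, beside 8.16% of all genes. In the gene-level table alone 0 members passed, beside 0.721% of all genes called higher and 1.99% called lower.

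**Figure D1:**
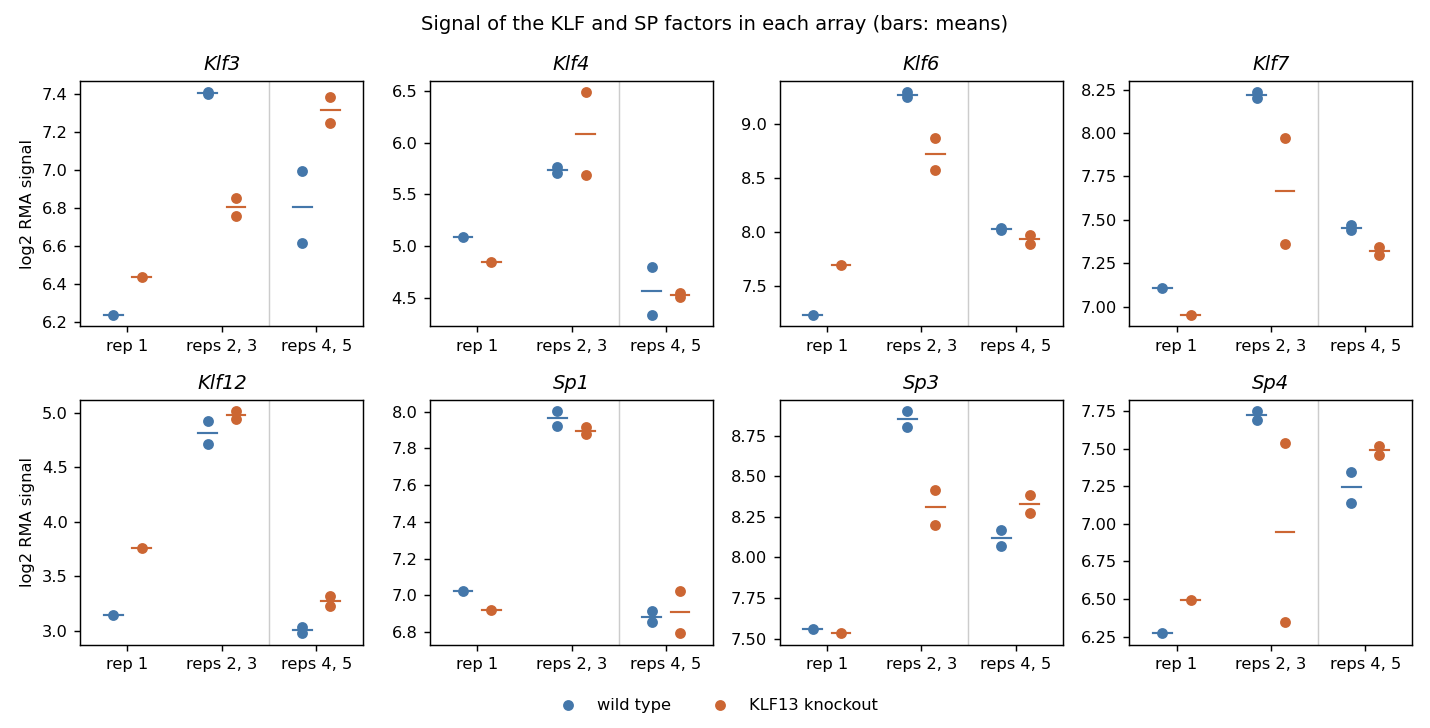
Log2 RMA signal of the 8 measured genes in each array, by replicate set; points are arrays, short bars are means, and the grey line divides the exon-level table on the left from the gene-level table on the right, whose scales are not comparable. The knockout points of Klf7 lie below and those of Klf12 above the wild-type points of the same set, while those of Klf3, Sp3 and Sp4 lie below in replicates 2 and 3 and above in replicates 4 and 5.

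Klf3, the CtBP-binding repressor, gave opposite differences in different sets. It read 6.24 in WT1 and 6.44 in KO1. In replicates 2 and 3 it was at 7.40 and 7.41 in the wild-type arrays and at 6.85 and 6.76 in the knockout arrays. In replicates 4 and 5 it was at 6.99 and 6.62 in the wild-type arrays and at 7.25 and 7.38 in the knockout arrays. Both knockout arrays thus lay below both wild-type arrays in the one set and above them in the other. The set differences were 0.20, -0.60 and 0.51, and the fit over all arrays gave 0.0035 ± 0.19 (SE, 5 against 5, limma adjusted p = 0.993). Its 95% interval ran from -0.41 to 0.41, so a change of up to that size in either direction was within the error. In the gene-level table alone Klf3 was at 1.42 times wild type (0.51 ± 0.15 log2, SE, 2 against 2, limma adjusted p = 0.127, unadjusted p = 0.00826), the one member of 7 at an unadjusted p under 0.05 there, beside 16% of all genes, and 2.72% of genes passed. With 1 array left out the difference there was 0.70 without WT4, 0.32 without WT5, 0.57 without KO4 and 0.44 without KO5. In each of these fits 1 genotype has a single array, whose spread cannot be measured. limma also draws the variance largely from all genes, so only the differences are given. Its difference between the tables was 0.84 ± 0.30 (limma interaction, adjusted p = 0.872, unadjusted p = 0.0186).

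Klf12, a second CtBP-binding repressor, was dim and did not reach the filter, so it entered no test of the tested genes. It read 3.14 in WT1 and 3.76 in KO1. The wild-type arrays of replicates 2 and 3 were at 4.71 and 4.93 and the knockout arrays at 5.02 and 4.94. In the gene-level table these values were 2.98 and 3.03 against 3.23 and 3.32. Every knockout array was above the wild-type arrays of its set, KO3 only just above WT3. The set differences were 0.62, 0.16 and 0.27. Of the tested genes, 11.3% were above 0 in all 3 sets, and 1.63% had all knockout arrays above the wild-type arrays of their set. Klf12 is not among these genes, and the shares for dim genes were not computed. With the dim genes added, the median difference over all arrays moved from -0.10 to 0.0119, so their shares may be higher. In a fit without the filter the difference was 0.29 ± 0.11 (SE, 5 against 5, limma adjusted p = 0.326, 95% interval 0.06 to 0.53). Of its 8 exon-level probe sets 2 were bright enough to be tested, 1 of them, 10422016, with a difference of 0.89 ± 0.28 (SE, 3 against 3, limma adjusted p = 0.743) and the other, 10422015, of 0.10.

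Klf4, a factor of quiescent cells, had overlapping values. It was at 5.09 in WT1 and 4.85 in KO1. The wild-type arrays of replicates 2 and 3 gave 5.76 and 5.71, KO2 gave 5.69 and KO3 gave 6.49. In the gene-level table wild-type arrays gave 4.34 and 4.80 and knockout arrays 4.55 and 4.51. The genotypes overlapped in both sets with 2 arrays each, and the high value of KO3 stood 0.80 above KO2. Over all arrays the difference was 0.08 ± 0.17 (SE, 5 against 5, limma adjusted p = 0.802, 95% interval -0.30 to 0.45), and without KO3 it was -0.09. With the median in place of the mean of the exon-level probe sets the difference was -0.35. Its exon-level probe sets disagreed, with 1 of 4 tested below 0 (10513011, at -0.70) and the highest at 0.49.

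Klf7, an activator of the KLF6 subgroup, had the smallest p of the 7 tested members over all arrays. It read 7.10 in WT1 and 6.95 in KO1. The next set read 8.20 and 8.24 for wild type, 7.97 for KO2 and 7.36 for KO3. In the gene-level table it read 7.44 and 7.47 in the wild-type arrays and 7.30 and 7.34 in the knockout arrays. Each of the 5 knockout arrays was below the wild-type arrays of its set, which was so for 10.8% of all tested genes. The differences by set were -0.15, -0.55 and -0.13. Klf7 was the one member of 7 below 0 in all 3 sets, beside 24.8% of all genes. Over all arrays it was at 0.810 of wild type (-0.30 ± 0.14 log2, SE, 5 against 5, limma adjusted p = 0.341, unadjusted p = 0.0526), with a 95% interval of -0.61 to 0.0041. Without KO3, whose value lay 0.61 under KO2, the difference was -0.17 ± 0.08 (SE, 5 against 4, limma adjusted p = 0.245). All 5 of its exon-level probe sets were below 0, from -0.72 (10355142) to -0.07 (10355146).

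Klf6, an activator induced early by many stimuli, was higher in KO1 than in WT1, at 7.69 against 7.23. In replicates 2 and 3 it was lower, with 8.87 and 8.57 in the knockout arrays against 9.25 and 9.29 in the wild-type arrays. In the gene-level table the values nearly met, at 7.89 and 7.98 in the knockout arrays against 8.02 and 8.04 in the wild-type arrays. The set differences of 0.46, -0.55 and -0.10 gave -0.17 ± 0.15 over all arrays (SE, 5 against 5, limma adjusted p = 0.563, 95% interval -0.50 to 0.17). The difference was -0.32 without WT1 or KO1 (limma adjusted p = 0.352), -0.06 without KO3, -0.11 without WT2, -0.10 without WT3, -0.05 with quantile normalization and -4e-04 with array weights. Its 6 tested exon-level probe sets all lay below 0, between -0.44 (10403360) and -0.12 (10403354).

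**Figure D2:**
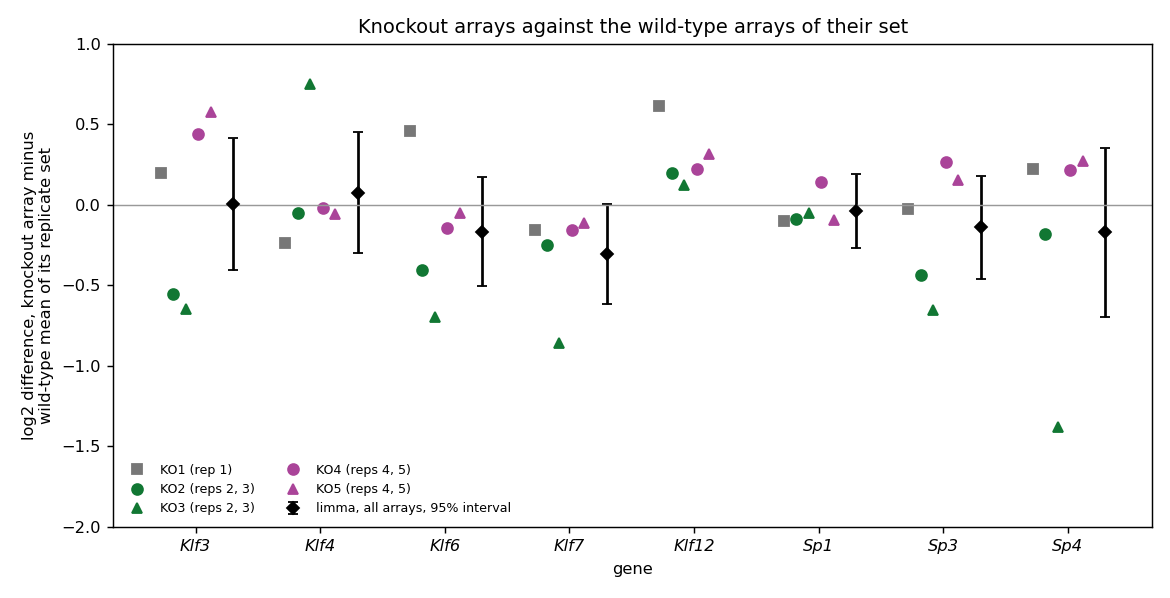
Log2 difference of each knockout array from the wild-type mean of its replicate set, by gene, with the limma estimate over all arrays and its 95% interval in black. The intervals of all 7 tested genes include 0, Klf12 has no interval because it was under the filter, and KO3 gives the lowest point for Sp4, at -1.38, and the highest for Klf4, at 0.75.

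Among the SP factors Sp1, the general activator at GC boxes, had the narrowest interval. Its values were 7.02 in WT1 and 6.92 in KO1. Replicates 2 and 3 gave 8.01 and 7.92 for wild type and 7.88 and 7.91 for knockout. In replicates 4 and 5 they were 6.86 and 6.91 in the wild-type arrays and 7.03 and 6.79 in the knockout arrays, so that the genotypes overlapped. Sp1 differed by -0.10, -0.07 and 0.02 in the 3 sets and by -0.04 ± 0.11 over all arrays (SE, 5 against 5, limma adjusted p = 0.842). The 95% interval on the linear scale was 0.830 to 1.14 of the wild-type level. The sign of this small difference turned with quantile normalization (0.07). Of its 6 exon-level probe sets 3 were below 0, the lowest, 10427221, at -0.79 ± 0.28 (SE, 3 against 3, limma adjusted p = 0.743).

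Sp3, which competes with SP1 for the same sites, was at 7.56 in WT1 and 7.53 in KO1. Replicates 2 and 3 gave 8.80 and 8.90 for wild type and 8.42 and 8.20 for knockout. The gene-level table gave 8.17 and 8.07 for wild type and 8.38 and 8.27 for knockout. The genotypes did not overlap in either of these sets, but the order was reversed between them. A dimmer gene-level probe set of Sp3, 10483646, overlapped, at 6.01 and 6.36 in wild type and 6.54 and 6.27 in knockout. The set differences were -0.03, -0.54 and 0.21, and over all arrays Sp3 differed by -0.14 ± 0.15 (SE, 5 against 5, limma adjusted p = 0.600, 95% interval -0.46 to 0.18). It was -0.04 without KO3, -0.06 without WT3, -0.21 without KO4, -0.03 with quantile normalization and 0.02 with array weights. Between the tables its difference was 0.58 ± 0.25 (limma interaction, adjusted p = 0.872, unadjusted p = 0.0438). Of its 12 exon-level probe sets 9 were below 0, from -1.14 (10483638) up to 0.64 (10483644), and the smallest p was that of 10483640 (-0.97 ± 0.38, SE, 3 against 3, limma adjusted p = 0.743).

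Sp4, a relative best known in neurons, followed the same order of sets. It read 6.27 in WT1 and 6.49 in KO1. In replicates 2 and 3 it read 7.69 and 7.75 in the wild-type arrays, 7.54 in KO2 and 6.35 in KO3. In replicates 4 and 5 the wild-type arrays were at 7.35 and 7.14 and the knockout arrays at 7.46 and 7.52. Its difference of -0.78 in replicates 2 and 3 rested on KO3, which was 1.19 under KO2. Over all arrays Sp4 differed by -0.17 ± 0.24 (SE, 5 against 5, limma adjusted p = 0.693, 95% interval -0.69 to 0.35), and without KO3 by 0.11 (limma adjusted p = 0.606). Between the tables its difference was 0.69 ± 0.47 (limma interaction, adjusted p = 0.872, unadjusted p = 0.169), and without KO3 it was 0.25 (limma adjusted p = 0.609). Of its 8 exon-level probe sets 7 were below 0, from -1.11 (10403194) up to 0.03 (10403200).

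Across the members, KO1 was below WT1 for 4 of 7, against 53.5% of all tested genes. In replicates 2 and 3 both knockout arrays lay below both wild-type arrays for 6 of the 7 tested members, against 43.1% of all tested genes (11.7% above). The median of the 7 was -0.55 there, beside -0.22 for all genes. These shares and medians cover all genes past the filter, and genes of the members' signal were not compared. In replicates 4 and 5 this held for 2 members, Klf6 and Klf7, against 26% of all genes, while both knockout arrays lay above for Klf3, Sp3 and Sp4, against 20.3% of all genes. The combination seen in those 3, lower in the one set and higher in the other with no overlap, was found in 7.99% of all tested genes. With each table quantile-normalized, 5 of 7 members were below 0 in replicates 2 and 3 (Klf3 at -0.45, Sp3 at -0.31 and Sp4 at -0.64) and 4 of 7 were above 0 among replicates 4 and 5, with Sp1 turned to 0.16 in replicates 2 and 3. Subtraction of array medians gave 5 of 7 and 3 of 7. After quantile normalization the median in replicates 2 and 3 was -0.31 for the 7 members and -0.06 for all tested genes. In replicates 4 and 5 these medians were 0.07 and -0.0025. The shares of all genes after either rescaling were not computed. In replicates 2 and 3 the 6 T cell markers had a median difference of -0.72, beside -0.26 in replicate 1 and 0.0038 in replicates 4 and 5. Over all arrays limma called 0 of the 6, beside 0.585% of all tested genes. An unadjusted p under 0.05 was found for 3 of the 6, beside 14.9% of all tested genes. The part of these markers in the result was not tested. The test of the difference between the tables called 0 members and 0 of all tested genes (limma interaction), with 2 members, Klf3 and Sp3, at an unadjusted p under 0.05, beside 5.27% of all genes.

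**Figure D3:**
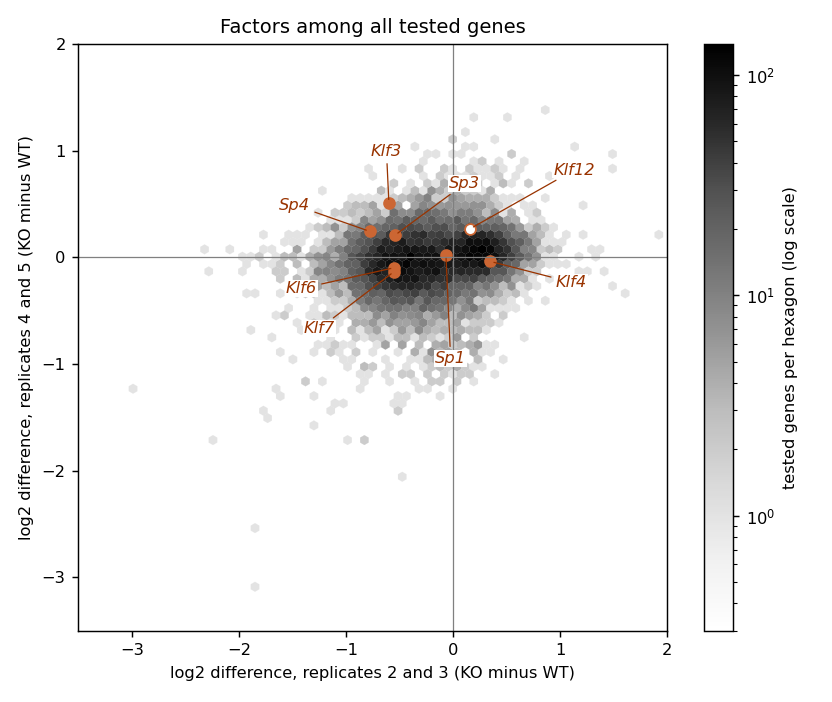
Log2 difference, knockout minus wild type, in replicates 2 and 3 against that in replicates 4 and 5; hexagons are shaded by the number of tested genes on a log scale, filled circles are the 7 tested members, the open circle is Klf12, and 2 tested genes lie outside the axes. Klf3, Sp3 and Sp4 lie at the upper left, at 0.51, 0.21 and 0.24 in replicates 4 and 5.

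Single exon-level probe sets, each covering part of a transcript, showed the spread within a gene. The 8 genes had 62 probe sets, of which 51 passed the filter on dim probe sets. None of the 51 passed (limma, 0% of all tested probe sets called), and 4 of them had an unadjusted p under 0.05, where 4.67% of all probe sets did. Of the 51, 36 were below 0 (70.6%, against 62.2% of all tested probe sets). Beside those already named, the lowest difference of Klf3 was that of 10522058 (-1.03 ± 0.32, SE, 3 against 3, limma adjusted p = 0.743), with 5 of 8 tested below 0 and the highest, 10522054, at 0.23. KO3 was below KO2, WT2 and WT3 at 36 of the 62 member probe sets and above all of them at 16. Both kinds occurred within Klf3, Klf4, Klf12, Sp1 and Sp3. Over all 169103 tested probe sets these counts were 86267 and 52661. The member counts include probe sets under the filter and the counts over all do not, so the bases differ.

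**Figure D4:**
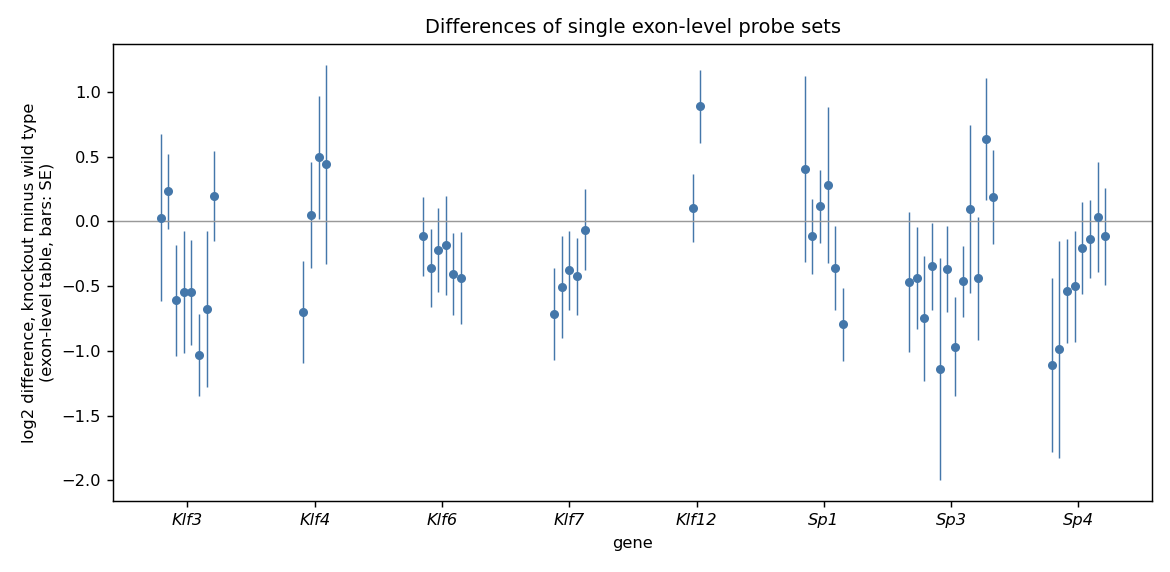
Log2 difference, knockout minus wild type, of each tested exon-level probe set of the 8 genes, in the order of the probe set numbers, with its limma standard error as bar. Probe sets of Klf6 and Klf7 all lie below 0, those of Klf3, Sp1 and Sp3 on both sides, and the lowest, of Sp3, is at -1.14.

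The genes most like a member in pattern were sought for the 3 of the 7 tested members with the smallest p (Klf12, under the filter, was not among them), with the log2 values of 10 arrays after subtraction of each set's mean. Closest to Klf7 were Rmc1 (Pearson r = 0.996) and Zfp330 (r = 0.996), at -0.57 and -0.51 over all arrays (limma adjusted p = 0.269 and 0.294). Closest to Klf6 were Mblac1 (0.988) and Hs2st1 (0.973), at -0.09 and -0.32, and closest to Sp3 were Ptges3 (0.986) and Peli1 (0.986), at -0.16 and -0.28. The mean of each set was subtracted, but 1 array far from the others still weighs on r. For Klf7, KO3 was at -0.86 from the wild-type mean of its set, and the other knockout arrays at -0.25 to -0.11. The correlations were not computed without KO3. The arrays come from 2 tables and 3 replicate sets, and the 2 genes were picked from 12485 by this measure, so the high values are a description only.

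The rest of the family, the factors the proteins work with and genes they are known to act on were looked at as lists. Of 16 other KLF and SP genes 11 were tested and 0 passed over all arrays (limma, 1 at an unadjusted p under 0.05, beside 14.9% of all tested genes). The median was 0.24. Above 0 were 10 of 11, also after quantile normalization and after subtraction of array medians. Of all tested genes 63.5% were below 0, with a median of -0.10. The list's medians by set were 0.03, 0.28 and 0.16, highest in the set with KO3. Its mean was 5.52 to 5.65 in the wild-type arrays of the gene-level table. The list was not looked at without KO3 or beside genes of like signal. The smallest p was that of Klf9, a SIN3-binding relative of KLF13 (0.29 ± 0.12, SE, 5 against 5, limma adjusted p = 0.294). After activation Klf2, the quiescence factor of this family, read 8.37 and 8.35 in WT4 and WT5 and 9.06 and 8.74 in KO4 and KO5. Its set differences were 0.24, -0.24 and 0.54, with overlap in replicates 2 and 3, and it did not pass in the gene-level table (limma adjusted p = 0.0850). Klf2 was chosen after its values were seen.

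Of 18 partner proteins, such as the CtBP corepressors, histone deacetylases, acetyltransferases and general factors, 17 were tested and 0 passed over all arrays (limma, 4 at an unadjusted p under 0.05, beside 14.9% of all tested genes). All 17 were below 0, with a median of -0.26 (15 of 17 after quantile normalization, median -0.14, and 16 of 17 after subtraction of array medians), beside 63.5% of all tested genes below 0 and a median of -0.10. The list's medians by set were 0.0017, -0.62 and -0.09, where those of all genes were -0.02, -0.22 and -0.01. The lowest was thus that of the set with KO3. These genes had a mean of 7.59 to 7.66 in the wild-type arrays of the gene-level table. They were not looked at as a list without KO3 or beside genes of like signal. E2f1, a cell cycle activator that binds SP1, had the smallest p (-0.40 ± 0.12, SE, 5 against 5, limma adjusted p = 0.206), and fell in the gene-level table (-0.67, adjusted p = 0.0337), the 1 of 17 called there, beside 1.99% of all genes called lower. The CtBP genes, named after their values were seen, were at -0.24 (Ctbp1) and -0.0039 (Ctbp2).

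Of 17 reported target genes 13 were tested and 0 passed over all arrays (limma, 2 at an unadjusted p under 0.05, beside 14.9% of all tested genes). Below 0 were 7 of 13, with a median of -0.21, beside 63.5% of all tested genes and a median of -0.10. Tk1, a thymidine kinase whose promoter binds SP1, had the smallest p (-0.52 ± 0.16, SE, 5 against 5, limma adjusted p = 0.210) and fell in the gene-level table (-0.89, adjusted p = 0.0120). S1pr1, an exit receptor of resting T cells that KLF2 activates, rose there (0.82, adjusted p = 0.0129) and was the other target to pass in that table; it was named after its value was seen. Of all tested genes 2.72% passed there, 0.721% higher and 1.99% lower. S1pr1 had set differences of 0.68, -0.76 and 0.82, and over all arrays it was at 0.16 (limma adjusted p = 0.738). Other listed targets, also named after their values were seen, went different ways in the gene-level table. Ccr7 was at 0.38, Itgb7 at 0.08 and Il7r at -0.26. A link between Klf2 and S1pr1 was not tested.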

How the data were processed

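RNA of 5 wild-type and 5 knockout samples was hybridised to Affymetrix arrays. The values the authors deposited are log2 signals made by RMA (submitters' processing notes, without a version or settings). The exon-level table (241576 probe sets) and the gene-level table (35556) lie on different scales and were compared only within themselves. Probe sets annotated to 1 gene were used, with symbols updated through RefSeq (GRCm38.p6). An exon-level gene value was the mean over its probe sets, a gene-level value that of the brightest probe set. A gene was tested where its mean signal reached the 30th percentile in each table (12485 genes), and probe sets likewise in theirs.

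Models were fitted by limma 3.58.1 in R 4.3.3 (lmFit, eBayes, 2-sided, Benjamini-Hochberg over all genes, adjusted p under 0.05), over all arrays with replicate sets as block, in each table alone, for the interaction of genotype and table, and per probe set. They were tested on simulated data. Alternatives changed normalization, probe set summary, filter, block, variance model, array weights and the arrays used. No column was left without a sample. Members and lists were chosen with earlier results of these data known. Named were the members, Klf13, list genes past the threshold or of smallest p, probe sets of smallest p or extreme value, and the 2 genes most like each of 3 members; exceptions are said to be so. The number of arrays limits the precision.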

Additional observations from a re-analysis of the deposited data

Results flagged for a closer look

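The flag for a highest or lowest value marks about 1 in 20 groups by chance where values are independent and of equal spread. Here knockout arrays of 1 set share a wild-type mean, and KO3 stood apart over all tested genes. That rate therefore does not apply, and the flags of KO3 are not independent of each other. Among the 5 knockout values of a gene, each taken from the wild-type mean of its set, KO3 stood far from the others for Klf4 (0.75), Klf7 (-0.86) and Sp4 (-1.38), and KO4 for Sp1 (0.14). The knockout effect in replicates 4 and 5 minus that in replicates 2 and 3 was 1.11 for Klf3, 0.75 for Sp3 and 1.02 for Sp4, with all knockout arrays on opposite sides of the wild-type arrays in the 2 sets. A test of this difference without replicate 1, chosen after the values were seen, gave a limma adjusted p of 0.302 for Klf3, 0.393 for Sp3 and 0.458 for Sp4 (8 arrays, unadjusted p = 0.00243, 0.0133 and 0.0583). The sets differ in table, in scale and in the mice used, which cannot be told apart.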

How the results depend on the processing

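Of 153 member values under alternatives of the fit over all arrays, 15 changed sign and 0 passed. Other filters, blocks or variance models left each member's difference as it was, so their signs could not change. The mean of the gene-level probe sets could change only Sp3. Leaving out WT1 and leaving out KO1 gave the same values, and both are counted. Klf3 was at -0.20 with median polish and turned without WT1 or KO1 (-0.0454), WT4 (-0.0162), WT5 (-0.13), KO4 (-0.0539) or KO5 (-0.0946); with 1 array left out it ranged from -0.13 to 0.11. Klf4 was at -0.35 with the median of probe sets, -0.36 with quantile normalization added, -0.0981 with array weights and -0.0885 without KO3 (range to 0.17, without WT5). Sp1 was at 0.0713 with quantile normalization, Sp3 at 0.0243 with array weights, and Sp4 at 0.14 with array weights and 0.11 without KO3 (range from -0.27, without WT1 or KO1).

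Over all arrays 73 genes passed, against 31 with the median of probe sets, 39 with quantile normalization added, 4 with the table as block, 23 with the replicate number as block and 504 with array weights; leaving out 1 array gave 12 (KO4) to 362 (KO3). Among exon-level values 0 genes passed (1019 at an unadjusted p under 0.05), against 48 with the replicate number as block, 16 with array weights, and 0 to 426 (KO3) with 1 array left out. Among gene-level values 339 passed, against 660 with the replicate number as block, 517 with trend and robust, and 193 (without KO4) to 529 (without WT5). The interaction called 0, but 13 with array weights and 0 to 121 (without KO3), and probe sets 0 to 108 (without KO3). Samples of the 2 genotypes share only a number: across genes WT2 minus WT3 correlated with KO2 minus KO3 at -0.424, and WT4 minus WT5 with KO4 minus KO5 at -0.241. The replicate block changed no member's call. The cause of these shifts was not tested.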
